A study of Mus musculus with 11 samples.

Results

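The genes described here encode the T cell antigen receptor complex, its costimulatory receptors, and the kinases, adaptors, inhibitors and transcription factors that act beneath them. They were chosen by name, and 50 of the 56 genes named were measured by a probe set with a single gene symbol, each by 1 probe set, in a table of 16673 probe sets that covered 14835 genes in this way. Lck, Itpr1, Cblb, Dusp5, Nfkb1 and Relb were not analysed here. RNA came from mouse effector T cells, sorted on day 4 of a Th1 culture (conditions that favour interferon-gamma producing helper cells), and was hybridised to 11 microarrays. The 4 groups were wild-type CD4-CD8+ cells (CD8 cells, 2 arrays), Thpok-deficient CD4+CD8- cells (3 arrays), Thpok-deficient CD4+CD8+ cells (Thpok-deficient double-positive cells, 3 arrays) and wild-type CD4+CD8- cells (wild-type CD4 cells, 3 arrays). Zbtb7b encodes Thpok, a zinc finger protein that CD4 lineage cells need for their identity, and the floxed gene was deleted by a CD2-driven Cre (genotype Thpokf/f CD2cre). The other groups are labelled wild-type. All 4 groups started as CD44lo spleen T cells and shared the same culture, with irradiated splenocytes depleted of Thy1.2+ cells, anti-CD3 at 1 µg/ml, anti-CD28 at 3 µg/ml, IL-2 at 50 U/ml, IL-12 at 10 ng/ml and anti-IL-4 at 10 µg/ml. No source used here gives the age of the mice. The cells came in 2 preparations that the labels do not tie to single arrays, so p-values measure the spread between these arrays, which may be partly technical.

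When the antigen receptor is engaged, Src family kinases phosphorylate the CD3 and zeta chains, the kinase Zap70 docks there, and it marks the adaptors Lat and Lcp2. These gather phospholipase C-gamma, guanine nucleotide exchange factors and protein kinase C-theta, which open the calcium, Ras and NF-kappaB routes to the nucleus. Costimulators such as CD28 and ICOS add to the signal, while CD5, phosphatases, ubiquitin ligases and diacylglycerol kinases restrain it. The same receptor machinery serves CD4 and CD8 lineage T cells.

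The 4 groups were close to each other in most of these genes. Of the 50 members, 1 differed among the groups by limma's moderated F test (Cd5, adjusted p = 0.0448), against 0.246% of all probe sets. In 47 of the 50 members (94%) the 4 group means lay within 1 log2 unit of each other, and the same held for 92.5% of all probe sets. Tec, Dusp6 and Cd5 were the other 3, with group means spanning 1.49, 1.48 and 1.36 log2 units. The median SD within a group was 0.295 for the members and 0.320 for all probe sets. The Cd5 F call was lost with the replicate number as a block, with median centring, and when any array other than wild-type CD4 replicate 3 was left out.

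A pair of arrays stood apart. The SD over all probe sets was 1.70 in Thpok-deficient double-positive replicate 3 and 1.54 in wild-type CD4 replicate 3, against 1.94 to 2.06 in the other 9 arrays. The median of 809 olfactory, vomeronasal and trace amine receptor probe sets, a measure of background, was 4.21 and 4.79 in those arrays and 3.26 to 3.68 in the others. Wild-type CD4 replicate 3 gave the lowest value of its group for 44 of the 50 members, and for 86.4% of all probe sets with a mean of at least 7, a level that 46 members reached. Called members, medians and the differences of some members are also given on the 9 arrays without this pair. The T cell markers measured are all members described here, so they are no separate check. Their medians lay between 9.82 and 10.52 per array. The B cell list stayed between 4.35 and 5.25 and the myeloid and dendritic list between 4.15 and 4.75. Ms4a1 and Cr2 (B cells) and Ncr1 and Klre1 (NK cells) averaged 3.27, 3.23, 3.21 and 3.09, at or below the background medians. Other B cell genes were brighter. Pax5, Cd79a and Blk averaged 5.13, 5.09 and 5.03, above all background medians, and Ebf1 and Fcer2a averaged 4.30 and 3.95, within their range. Cd79b (B cells) read 7.92 and 7.46 in CD8 cells, 5.23, 4.96 and 6.38 in Thpok-deficient CD4+CD8- cells, 6.93, 5.64 and 6.41 in double-positive cells, and 4.53, 4.62 and 5.81 in wild-type CD4 cells. Its CD8 arrays lay above all others, by 2.71 over wild-type CD4 cells (limma adjusted p = 0.0513). The 8 B cell genes summed to 36.3 in both CD8 arrays, 33.7 to 34.8 in Thpok-deficient CD4+CD8- cells, 35.8 to 40.0 in double-positive cells, and 33.7 to 41.0 in wild-type CD4 cells. The B cell list median was 5.12 in double-positive replicate 3 and 5.25 in wild-type CD4 replicate 3, the arrays of higher background. It was 4.35 to 4.72 in the other arrays. The part of Cd79b in the CD8 differences was not tested. Cd68 and Fcgr3 (myeloid cells) averaged 8.01 and 5.59, above all background medians. The other measured genes of the myeloid and dendritic list averaged 3.36 to 4.61. Klrd1 and Nkg7, which activated T cells also make, averaged 8.41 and 11.62. Zbtb7b itself measured 6.89 and 7.23 in CD8 cells, 6.77, 6.77 and 7.17 in Thpok-deficient CD4+CD8- cells, 6.79, 6.30 and 6.996 in Thpok-deficient double-positive cells, and 8.70, 8.55 and 8.03 in wild-type CD4 cells. The 3 groups were below wild-type CD4 cells in every array, and the limma call was reached in the double-positive cells (difference -1.73 ± 0.25 (SE), adjusted p = 0.0246) but not in Thpok-deficient CD4+CD8- cells (-1.53, adjusted p = 0.0562) or CD8 cells (-1.37, adjusted p = 0.0653). Where this probe set lies relative to the deleted part of the gene was not examined.

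**Figure D1:**
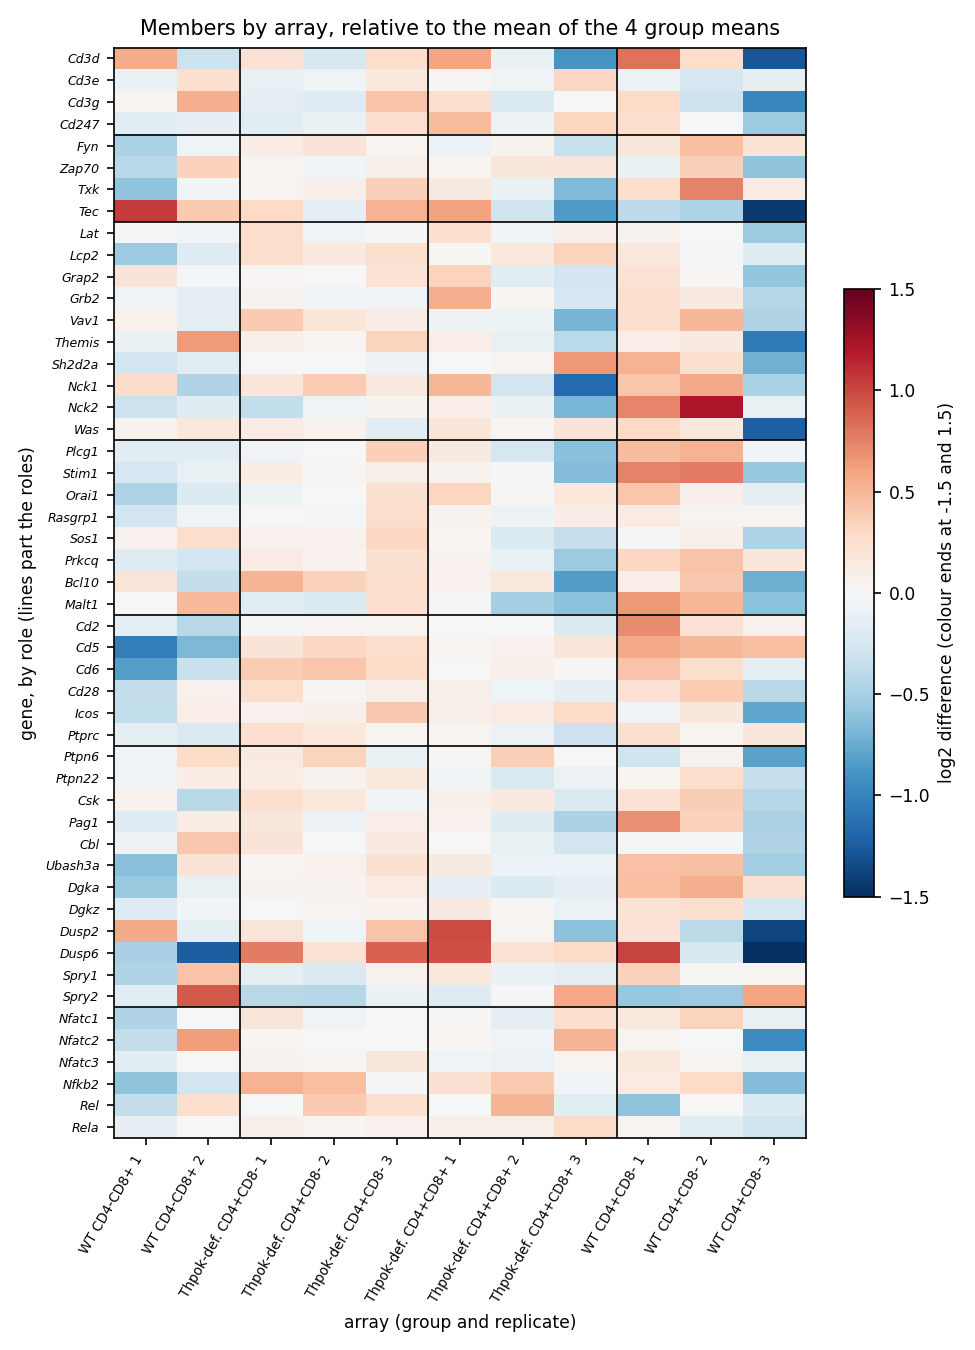
Deposited log2 intensity of the 50 measured members (rows, grouped by role) in the 11 arrays (columns, grouped by cell type and genotype), as the difference from the mean of the 4 group means, with colours ending at -1.5 and 1.5. Most rows are pale across the groups. Wild-type CD4 replicate 3, in the rightmost column, gave the lowest value of its group in 44 of the 50 rows.

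No chain of the receptor complex passed the test in any comparison. Cd3e, a CD3 chain, read 11.64 and 11.98 in CD8 cells, 11.64, 11.69 and 11.90 in Thpok-deficient CD4+CD8- cells, 11.76, 11.70 and 12.05 in Thpok-deficient double-positive cells, and 11.66, 11.50 and 11.61 in wild-type CD4 cells. The double-positive arrays all lay above the wild-type CD4 arrays, by 0.24 on average (95% interval -0.15 to 0.64). The CD8 difference from wild-type CD4 cells was 0.22 (-0.22 to 0.66) and that of Thpok-deficient CD4+CD8- cells 0.15 (-0.24 to 0.54), with overlapping arrays. Cd247, the zeta chain, read 8.05 and 8.11 in CD8 cells, 8.07, 8.12 and 8.48 in Thpok-deficient CD4+CD8- cells, 8.70, 8.15 and 8.54 in double-positive cells, and 8.48, 8.23 and 7.68 in wild-type CD4 cells. All groups overlapped wild-type CD4 cells, and the differences were -0.05, 0.09 and 0.33. Cd3g differed by 0.62, 0.36 and 0.35 and Cd3d by 0.19, 0.14 and -0.07 in CD8, Thpok-deficient CD4+CD8- and double-positive cells, none past the test. On the 9 arrays the differences were 0.29, 0.032 and 0.025 for Cd3g, -0.42, -0.46 and -0.30 for Cd3d and -0.28, -0.13 and 0.069 for Cd247. Cd3d thus turned sign in CD8 cells, and Cd3d and Cd247 did in Thpok-deficient CD4+CD8- cells. Further quantile normalization turned the sign of the 3 Cd3e differences (-0.0848, -0.11 and -0.022), so no direction is given for this gene.

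Among the surface receptors, Cd5 fell in CD8 cells. It encodes a scavenger receptor family protein that dampens antigen receptor signals. Cd5 measured 8.91 and 9.27 in CD8 cells, 10.13, 10.26 and 10.21 in Thpok-deficient CD4+CD8- cells, 9.98, 10.01 and 10.12 in Thpok-deficient double-positive cells, and 10.52, 10.44 and 10.39 in wild-type CD4 cells. No array of one group overlapped another group, in the order wild-type CD4, Thpok-deficient CD4+CD8-, Thpok-deficient double-positive and CD8 cells, from high to low. The CD8 mean was 9.09 ± 0.25 (SD, n = 2) and the wild-type CD4 mean 10.45 ± 0.06 (SD, n = 3), a 2.57-fold lower level (log2 difference -1.36 ± 0.18 (SE), limma adjusted p = 0.00873). In these sorted populations, fewer cells with the transcript and less transcript per cell cannot be told apart. Cd5 was the 1 member called in this comparison, in which 0.534% of all probe sets were called, 0.234% lower and 0.3% higher.

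Neighbours in the order of Cd5 levels were not all separated. Thpok-deficient CD4+CD8- cells were 0.25 below wild-type CD4 cells (difference -0.25, 95% interval -0.60 to 0.11), and double-positive cells were 0.16 below Thpok-deficient CD4+CD8- cells (difference -0.16, -0.52 to 0.19), both intervals reaching past 0. The double-positive cells differed from wild-type CD4 cells by -0.41 (-0.76 to -0.06, limma adjusted p = 0.399). Against CD8 cells, Cd5 was higher by 1.11 (0.72 to 1.51, adjusted p = 0.214) in Thpok-deficient CD4+CD8- cells and by 0.95 (0.55 to 1.34, adjusted p = 0.828) in double-positive cells, with no overlap and no call after adjustment. These comparisons share arrays, so their values are not separate evidence. The Cd5 call between CD8 and wild-type CD4 cells held without the 2 narrow arrays (-1.39, adjusted p = 0.00960), but not without CD8 replicate 1 (-1.18, adjusted p = 0.0726), without CD8 replicate 2 (-1.54, adjusted p = 0.0561) or with the 5 arrays of the groups compared alone (adjusted p = 0.348).

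The promoter windows of Cd5 and Dgka are shown because these genes, together with Cd2, were lower without overlap in all 3 comparisons with wild-type CD4 cells. Of the 50 members, 42 had a window in the RefSeq table of build GRCm38.p6. These windows end at the annotated gene start, read 5′ to 3′ on the minus strand, and capitals mark a match to the ETS-type motif AGGAAG.
Cd5, chr19:10739027-10739224: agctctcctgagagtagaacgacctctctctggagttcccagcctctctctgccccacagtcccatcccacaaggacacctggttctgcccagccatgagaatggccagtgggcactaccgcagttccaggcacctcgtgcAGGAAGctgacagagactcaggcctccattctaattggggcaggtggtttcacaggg
Dgka, chr10:128745085-128745334: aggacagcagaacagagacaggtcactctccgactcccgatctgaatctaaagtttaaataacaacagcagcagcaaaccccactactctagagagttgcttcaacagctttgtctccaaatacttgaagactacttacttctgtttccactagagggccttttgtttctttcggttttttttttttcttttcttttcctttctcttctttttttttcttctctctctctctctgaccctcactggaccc
The Cd5 window of 198 bases held 1 match to the ETS-type letters and none to the RUNX-type letters TGTGGT. Both were searched on both strands (CTTCCT and ACCACA on the other). Only these exact letters were searched, so other forms of either motif may be present. Of 32851 windows of that length, 23.7% held the ETS-type and 11.4% the RUNX-type letters. The Dgka window, the most upstream of 4 for that gene, spans 250 bases and held neither, against 29.5% and 14% of windows of its length. GC content was 58.6% for Cd5 and 41.2% for Dgka.

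Cd6, a receptor related to CD5, read 8.37 and 8.85 in CD8 cells, 9.57, 9.61 and 9.48 in Thpok-deficient CD4+CD8- cells, 9.20, 9.27 and 9.20 in double-positive cells, and 9.62, 9.46 and 9.05 in wild-type CD4 cells. The CD8 arrays lay below all others, and both Thpok-deficient groups overlapped wild-type CD4 cells. The difference of CD8 from wild-type CD4 cells was -0.77 ± 0.22 (SE), with a limma adjusted p of 0.173, and -0.93 with an adjusted p of 0.0430 without the 2 narrow arrays. Cd2, the adhesion receptor for CD48 in mice, was lower without overlap in all 3 groups, by -0.61 in CD8, -0.32 in Thpok-deficient CD4+CD8- and -0.40 in double-positive cells (adjusted p = 0.296, 0.557 and 0.600).

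The costimulatory receptors showed no called difference. Cd28, whose product sends the main costimulatory signal, read 10.49 and 10.91 in CD8 cells, 11.11, 10.86 and 10.93 in Thpok-deficient CD4+CD8- cells, 10.93, 10.77 and 10.69 in double-positive cells, and 11.06, 11.22 and 10.43 in wild-type CD4 cells. The groups overlapped, with differences from wild-type CD4 cells of -0.21 (95% interval -0.77 to 0.35), 0.06 (-0.44 to 0.56) and -0.10 (-0.61 to 0.40). Icos, an inducible costimulator of the same family, read 10.36 and 10.83 in CD8 cells, 10.78, 10.80 and 11.13 in Thpok-deficient CD4+CD8- cells, 10.80, 10.85 and 11.02 in double-positive cells, and 10.67, 10.90 and 9.95 in wild-type CD4 cells. Its differences were 0.09 (-0.53 to 0.71), 0.40 (-0.15 to 0.96) and 0.38 (-0.17 to 0.94). On the 9 arrays the differences were -0.44, -0.18 and -0.29 for Cd28 and -0.19, 0.12 and 0.039 for Icos. Ptprc, the CD45 phosphatase, differed by -0.33, -0.00 and -0.27.

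Among the kinases, Tec had the widest difference of all members and did not pass the test. It encodes a kinase of the Tec family, which acts on phospholipase C-gamma. Tec read 7.71 and 7.06 in CD8 cells, 6.96, 6.52 and 7.18 in Thpok-deficient CD4+CD8- cells, 7.26, 6.36 and 5.82 in double-positive cells, and 6.26, 6.20 and 5.23 in wild-type CD4 cells. CD8 and Thpok-deficient CD4+CD8- cells lay above all wild-type CD4 arrays, while the double-positive cells overlapped them. The differences were 1.49 ± 0.44, 0.99 ± 0.39 and 0.58 ± 0.39 (SE), with limma adjusted p of 0.185, 0.404 and 0.880, and on the 9 arrays 1.15, 0.65 and 0.58. Zap70 read 9.07 and 9.83 in CD8 cells, 9.53, 9.44 and 9.57 in Thpok-deficient CD4+CD8- cells, 9.51, 9.66 and 9.66 in double-positive cells, and 9.39, 9.85 and 8.88 in wild-type CD4 cells. Its groups overlapped, with differences of 0.08, 0.14 and 0.24, and -0.17, -0.10 and -0.034 on the 9 arrays. Fyn, a Src family kinase, was lower without overlap in CD8 cells (-0.54, adjusted p = 0.322) and in double-positive cells (-0.39, adjusted p = 0.565). Txk, another Tec family kinase, was lower without overlap in CD8 cells (-0.70, adjusted p = 0.385).

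**Figure D2:**
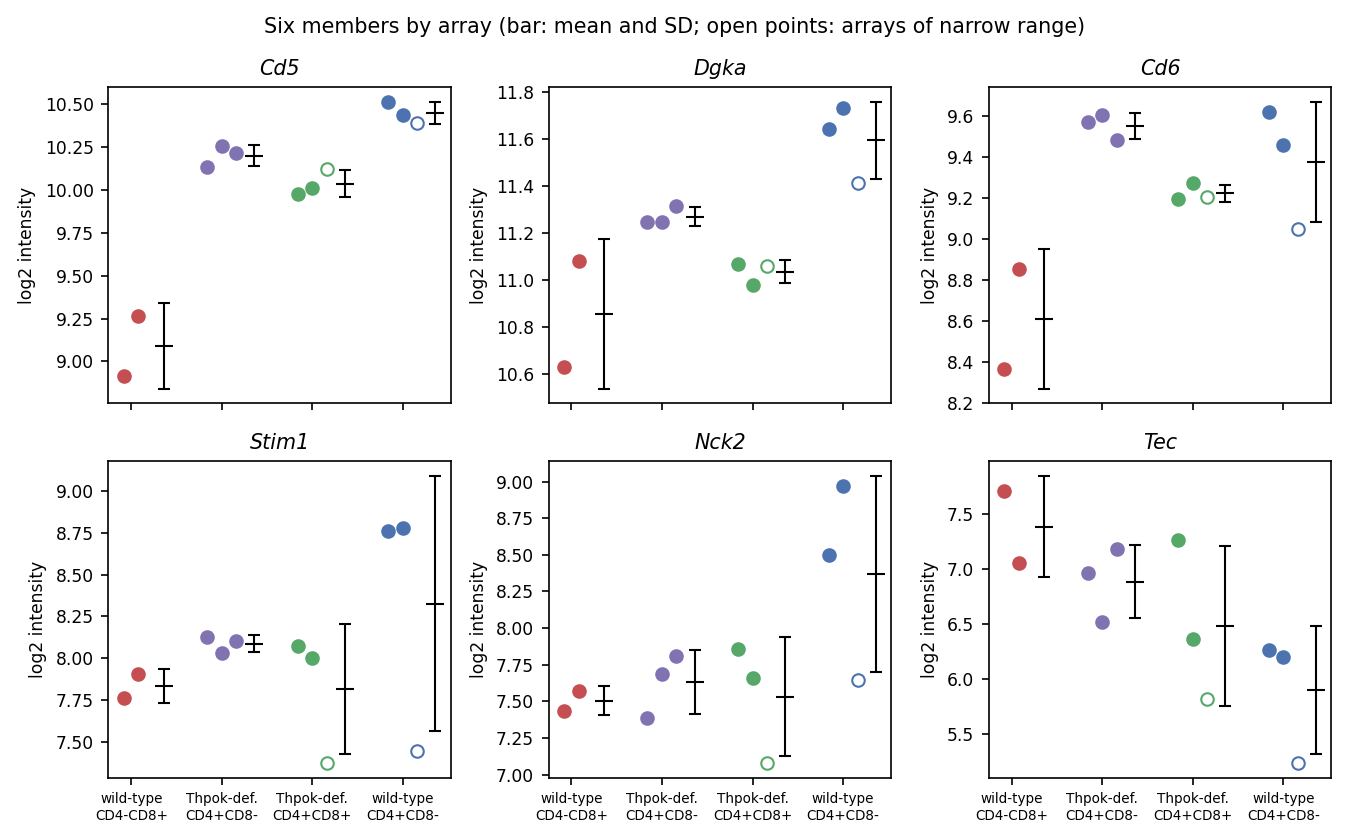
Log2 intensity (vertical axes, not starting at 0) of 6 members in each array, with the mean and SD of each group beside its points. Open points are Thpok-deficient double-positive replicate 3 and wild-type CD4 replicate 3, the arrays of narrow signal range. The 4 groups of Cd5 do not overlap, and for Stim1 and Nck2 the open point of the wild-type CD4 group lies below its other points.

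The 10 adaptors and scaffolds had median differences from wild-type CD4 cells of -0.10 in CD8, 0.16 in Thpok-deficient CD4+CD8- and 0.13 in double-positive cells. On the 9 arrays these medians were -0.34, -0.17 and -0.12, so no direction is given for the Thpok-deficient groups. None was called on all 11 arrays. Lat, the membrane scaffold of the pathway, read 10.44 and 10.37 in CD8 cells, 10.68, 10.37 and 10.44 in Thpok-deficient CD4+CD8- cells, 10.66, 10.38 and 10.49 in double-positive cells, and 10.47, 10.43 and 9.88 in wild-type CD4 cells. Its groups overlapped, with differences of 0.14, 0.24 and 0.25, and -0.047, 0.045 and 0.067 on the 9 arrays. Nck2, which links receptors to the actin cytoskeleton, read 7.43 and 7.57 in CD8 cells, 7.39, 7.69 and 7.81 in Thpok-deficient CD4+CD8- cells, 7.86, 7.66 and 7.08 in double-positive cells, and 8.50, 8.97 and 7.65 in wild-type CD4 cells. Wild-type CD4 replicates 1 and 2 were above every array of the other groups, and replicate 3 was not. On all 11 arrays the differences were -0.87 ± 0.36, -0.74 ± 0.32 and -0.84 ± 0.32 (SE), with limma adjusted p of 0.375, 0.449 and 0.386. Lcp2, the partner scaffold of Lat, was lower without overlap in CD8 cells (-0.35, adjusted p = 0.569). Grap2, Grb2, Vav1, Themis, Sh2d2a, Nck1 and Was ranged from -0.48 to 0.54 over the 3 comparisons. Was averaged 8.70, 8.61 and 8.74 in the 3 groups, against 8.34 in wild-type CD4 cells. On the 9 arrays its differences turned to -0.13, -0.22 and -0.12, and those of Sh2d2a were -0.61, -0.40 and -0.35.

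In the calcium, Ras and protein kinase C branch, 6 of 8 members had negative differences in CD8 cells (median -0.35), 5 of 8 in Thpok-deficient CD4+CD8- cells (median -0.12) and 7 of 8 in double-positive cells (median -0.31), with none called. Of all 16673 probe sets, 10424, 10583 and 8272 had negative differences in the same comparisons. The medians on the 9 arrays were -0.46, -0.21 and -0.27. Plcg1, phospholipase C-gamma, differed by -0.48, -0.22 and -0.56, and Prkcq, protein kinase C-theta, by -0.54, -0.17 and -0.50. Prkcq arrays did not overlap between CD8 or double-positive cells and wild-type CD4 cells (adjusted p = 0.338 and 0.380). Stim1, the calcium sensor of the endoplasmic reticulum, read 7.76 and 7.90 in CD8 cells, 8.13, 8.03 and 8.10 in Thpok-deficient CD4+CD8- cells, 8.07, 8.00 and 7.37 in double-positive cells, and 8.76, 8.78 and 7.44 in wild-type CD4 cells. The first and second wild-type CD4 arrays lay above all arrays of the other groups, and both low values came from the narrow arrays. With all arrays the difference of CD8 cells was -0.49 ± 0.37 (SE, adjusted p = 0.648). After further quantile normalization, Stim1 was 7.98 in wild-type CD4 replicate 3, against 8.71 and 8.65 in the other wild-type CD4 arrays. Orai1, the calcium channel that Stim1 opens, differed by -0.46, -0.07 and 0.05. The Ras activators Rasgrp1 and Sos1 and the NF-kappaB scaffold proteins Bcl10 and Malt1 ranged from -0.56 to 0.45. On the 9 arrays Malt1 differed by -0.33, -0.62 and -0.84.

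Of the 12 inhibitors, Dgka, a diacylglycerol kinase that removes the activator of Rasgrp1, was lower without overlap in each group. It read 10.63 and 11.08 in CD8 cells, 11.25, 11.25 and 11.32 in Thpok-deficient CD4+CD8- cells, 11.07, 10.98 and 11.06 in double-positive cells, and 11.64, 11.73 and 11.41 in wild-type CD4 cells. The highest array of the other 3 groups was below the lowest wild-type CD4 array. The differences were -0.74 ± 0.19, -0.33 ± 0.17 and -0.56 ± 0.17 (SE), with limma adjusted p of 0.137, 0.557 and 0.262. Dgkz, a second diacylglycerol kinase, differed by -0.18, -0.03 and -0.04.

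The dual-specificity phosphatase Dusp6, which switches off ERK and is itself induced by ERK activity, varied more within wild-type CD4 cells than within the other groups. It read 7.93 and 7.18 in CD8 cells, 9.18, 8.63 and 9.31 in Thpok-deficient CD4+CD8- cells, 9.39, 8.64 and 8.71 in double-positive cells, and 9.43, 8.17 and 6.88 in wild-type CD4 cells. Both Thpok-deficient groups lay above both CD8 arrays, by 1.48 and 1.36 (unadjusted p = 0.0286 and 0.0415 in limma, adjusted p = 1.00 and 0.828), while all 3 groups overlapped wild-type CD4 cells. The differences from wild-type CD4 cells were -0.60, 0.88 and 0.75 (limma adjusted p = 0.667, 0.557 and 0.906), and -1.25, 0.24 and 0.21 on the 9 arrays. With array weights the differences were -0.20 in Thpok-deficient CD4+CD8- and -0.43 in double-positive cells, so no direction is given for these groups. Dusp2, a related phosphatase, read 8.73 and 8.02 in CD8 cells, 8.34, 8.10 and 8.59 in Thpok-deficient CD4+CD8- cells, 9.14, 8.20 and 7.54 in double-positive cells, and 8.36, 7.75 and 6.79 in wild-type CD4 cells. It overlapped in all comparisons, with differences of 0.74, 0.71 and 0.66, and of 0.32, 0.29 and 0.62 on the 9 arrays. Ptpn6, a tyrosine phosphatase that counters the receptor's kinases, differed by 0.46, 0.47 and 0.47 with overlapping arrays, and by 0.23, 0.24 and 0.31 on the 9 arrays. Ptpn22, Csk and its anchor Pag1, the ubiquitin ligase Cbl and Ubash3a ranged from -0.38 to 0.31. Spry1 and Spry2, which restrain Ras signalling, ranged from -0.23 to 0.55, and Spry2 was the dimmest member and the 1 that a filter on a mean log2 value under 6 removed.

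The 6 transcription factors had median differences of -0.01 in CD8, 0.26 in Thpok-deficient CD4+CD8- and 0.28 in double-positive cells, with none called. On the 9 arrays these medians were -0.087, 0.048 and 0.040. Rel, an NF-kappaB subunit, differed by 0.48 in Thpok-deficient CD4+CD8- cells (8.20, 8.59 and 8.43, against 7.60, 8.20 and 8.00 in wild-type CD4 cells, adjusted p = 0.553), with its lowest array just above the highest wild-type CD4 array. Rela, another subunit, was 0.29 higher without overlap in double-positive cells (9.54, 9.54 and 9.75, against 9.50, 9.29 and 9.16 in wild-type CD4 cells, adjusted p = 0.722), and 0.15 higher on the 9 arrays. Nfkb2 and the calcium-dependent factors Nfatc1, Nfatc2 and Nfatc3 ranged from -0.36 to 0.47.

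**Figure D3:**
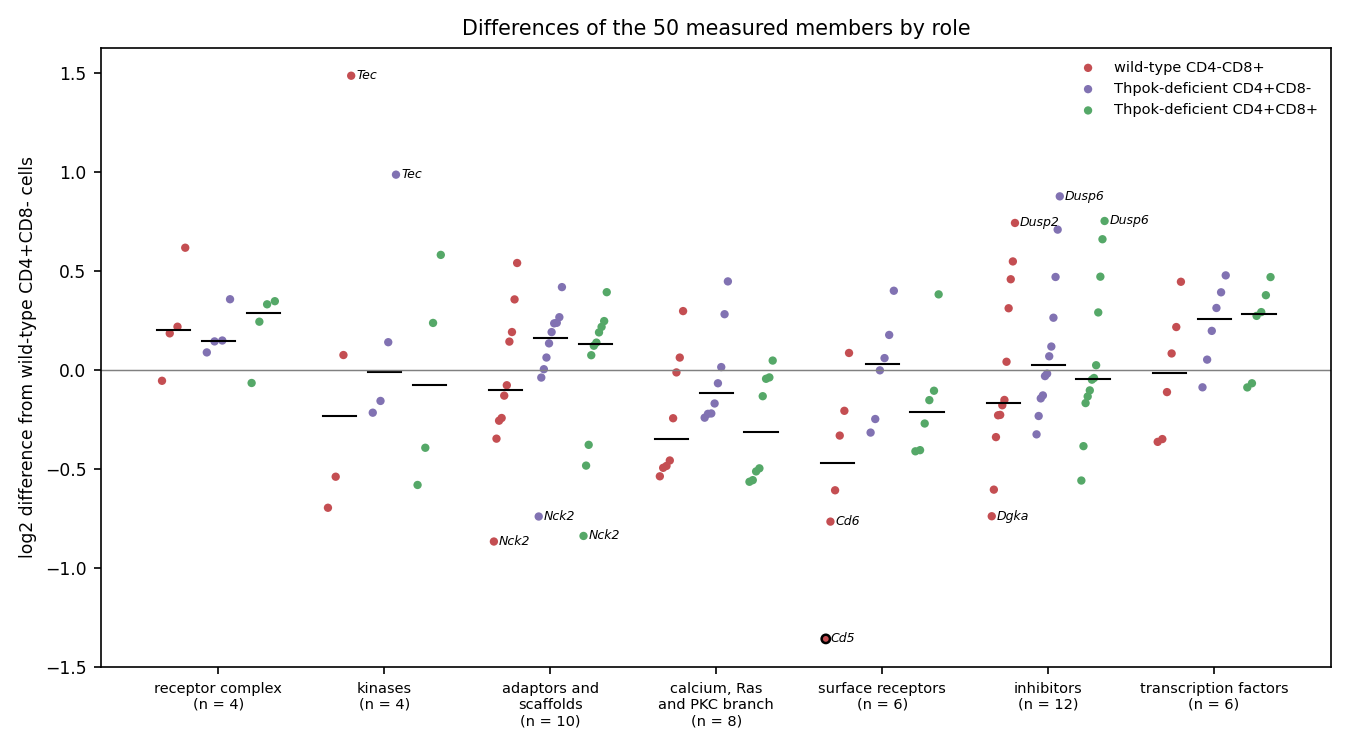
Log2 differences (vertical axis) of the 50 members in CD8 cells, Thpok-deficient CD4+CD8- cells and Thpok-deficient double-positive cells from wild-type CD4 cells, by role (horizontal axis), with a bar at each median. The black-edged point, Cd5 in CD8 cells at -1.36, is the 1 call.

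Counted over the whole list, CD8 cells differed from wild-type CD4 cells by a median of -0.14, and all probe sets by -0.14. Without wild-type CD4 replicate 3 these medians were -0.34 and -0.010, and without wild-type CD4 replicate 1 the members' median was 0.017. Many of all probe sets are dimmer than the members. Over the 7567 probe sets with a mean log2 value of at least 6, the median on all 11 arrays was 0.15. It was -0.15 over the members among them, so the equal medians above do not hold at like brightness. A total of 8 members were lower and 1 higher at an unadjusted p under 0.05 in limma, against 3.72% and 7.76% of all probe sets. Of the members, 13 of 50 (26%) were lower without overlap against 11.8% of all probe sets. The 13 were Fyn, Txk, Lcp2, Nck2, Plcg1, Orai1, Rasgrp1, Prkcq, Cd2, Cd5, Cd6, Ptprc and Dgka, and Tec alone was higher without overlap (2% against 11.2%). The 95% interval of the difference lay within 1 log2 unit of 0 for 29 members (58%), against 55.1% of all probe sets. For the other members the interval reached past 1 log2 unit.

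Thpok-deficient CD4+CD8- cells had no called member against wild-type CD4 cells, where 0.084% of all probe sets were called, and 1 member was higher and 1 lower at an unadjusted p under 0.05 in limma, against 7.39% and 3% of all probe sets. The median difference was 0.08 over the members and -0.15 over all probe sets. It was -0.12 over the members and -0.035 over all probe sets without wild-type CD4 replicate 3, and 0.072 to 0.20 over the members when each of the other arrays was left out. Among probe sets with a mean of at least 6 it was 0.089 over the members and 0.17 over all, with the same sign. Without overlap, Tec and Rel were higher and Cd2, Cd5 and Dgka lower (4% and 6% of members, against 10.9% and 9% of all probe sets). The interval lay within 1 log2 unit of 0 for 38 members (76%, against 64%). In Thpok-deficient double-positive cells no member was called against 0.204% of all probe sets, and 6 members were lower and 0 higher at an unadjusted p under 0.05, against 3.98% and 5.36%. The median difference was -0.04 over the members and 0.00 over all probe sets. Over the members it was -0.20 without wild-type CD4 replicate 3, but 0.032, 0.075 and 0.046 without wild-type CD4 replicate 1, wild-type CD4 replicate 2 or double-positive replicate 3. Among probe sets with a mean of at least 6 it was -0.044 over the members and 0.035 over all. Cd3e and Rela were higher and Fyn, Prkcq, Cd2, Cd5 and Dgka lower without overlap (4% and 10%, against 5.93% and 3.95%), and the interval lay within 1 log2 unit for 34 members (68%, against 74.1%). Both comparisons use the same 3 wild-type CD4 arrays.

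The proliferation list had no called gene, with smallest limma adjusted p of 0.196, 0.161 and 0.121 against wild-type CD4 cells. Yet all 9 measured genes were higher in CD8, Thpok-deficient CD4+CD8- and double-positive cells, by medians of 1.51, 1.78 and 1.76. At an unadjusted p under 0.05 in limma 5, 9 and 8 were higher, against 7.76%, 7.39% and 5.36% of all probe sets. Without overlap 5, 7 and 6 were higher, against 11.2%, 10.9% and 5.93%. The sum of these 9 genes ranged between 77.5 and 79.4 (CD8 cells), 77.0 and 83.5 (Thpok-deficient CD4+CD8- cells), 78.4 and 84.1 (double-positive cells), and 51.8 and 74.9 (wild-type CD4 cells), lowest in wild-type CD4 replicate 3. The NK list, of 4 measured genes led by Nkg7 and Klrd1, summed to 26.1 to 28.4, 26.8 to 27.9, 26.4 to 28.3 and 22.4 to 25.3 in the same order of groups. The part of these lists in the members' differences was not tested.

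Set against CD8 cells, several members had higher values in Thpok-deficient cells, without a call. In Thpok-deficient CD4+CD8- cells 22 of 50 members (44%) were higher without overlap and 0 lower, against 10.2% and 11.9% of all probe sets, with a median of 0.18 over the members and -0.02 over all probe sets. Among probe sets with a mean of at least 6 these medians were 0.20 and 0.036. The 22 included Cd5, Cd6, Cd2, Dgka, Fyn, Txk, Lcp2, Stim1, Orai1 and Dusp6. No member was called, 5 were higher and 0 lower at an unadjusted p under 0.05 in limma (against 1.01% and 1.37% of all probe sets), and 0.018% of all probe sets were called. The interval lay within 1 log2 unit of 0 for 34 members (68%, against 74.6%). In double-positive cells 9 members (18%) were higher without overlap than in CD8 cells, among them Cd5, Cd6, Cd247, Lcp2, Orai1 and Dusp6, and Sos1 and Malt1 were lower (4%), against 16.8% and 6.51% of all probe sets. No member was called there either, 5 were higher and 0 lower at an unadjusted p under 0.05 (against 1.26% and 1.61% of all probe sets), and 0.006% of all probe sets were called, while the interval lay within 1 log2 unit for 37 members (74%, against 61.9%). These comparisons share the 2 CD8 arrays.

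Within the Thpok-deficient cells, double-positive and CD4+CD8- cells did not differ in a called member, and 0 members passed an unadjusted p under 0.05 in either direction in limma, against 1.03% of all probe sets higher and 0.996% lower, with 0% called. The median difference of double-positive from CD4+CD8- cells was -0.12 over the members and 0.11 over all probe sets. Among probe sets with a mean of at least 6 these medians were -0.12 and -0.15, so the opposite signs do not hold at like brightness. Without the brightness limit, the medians over the members and over all probe sets were -0.061 and 0.047 on the 9 arrays without the narrow pair. After further quantile normalization they were 0.0017 and 0.0096, with 26 members above 0 and 24 below. Vav1, Sos1, Bcl10, Cd5, Cd6, Ptpn22 and Dgka were lower and Sh2d2a and Rela higher without overlap (14% and 4%, against 6.2% and 15.8%). These shares include the narrow double-positive replicate 3. The interval lay within 1 log2 unit for 40 members (80%, against 69%).

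Leaving out Thpok-deficient double-positive replicate 3 and wild-type CD4 replicate 3 changed which members were called. On the 9 arrays 5 members fell in CD8 cells relative to wild-type CD4 cells, with 0.876% of all probe sets called lower. They were Cd5 (-1.39, limma adjusted p = 0.00960), Stim1 (-0.94, adjusted p = 0.0138), Nck2 (-1.23, adjusted p = 0.0335), Cd6 (-0.93, adjusted p = 0.0430) and Dgka (-0.83, adjusted p = 0.0489). Stim1 and Dgka are described per array because of these calls, after their values were seen. In Thpok-deficient CD4+CD8- cells no member was called on the 9 arrays (0.234% of all probe sets), with Stim1 at -0.68 (adjusted p = 0.0536) and Nck2 at -1.10 (adjusted p = 0.0777). In double-positive cells none was called either (0.168%), with Stim1 at -0.73 (adjusted p = 0.0653) and Nck2 at -0.97 (adjusted p = 0.125). Differences below 0 were more frequent on the 9 arrays, with 38, 30 and 35 of 50 members in CD8, Thpok-deficient CD4+CD8- and double-positive cells, against 30, 19 and 27 on all 11. Of all 16673 probe sets, 10424, 10583 and 8272 were below 0 on all 11 arrays. That count was not taken on the 9 arrays, so the members' counts there lack a like background. The medians of all probe sets on the 9 arrays were -0.010, -0.035 and 0.046. The wild-type CD4 group then holds 2 arrays.

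**Figure D4:**
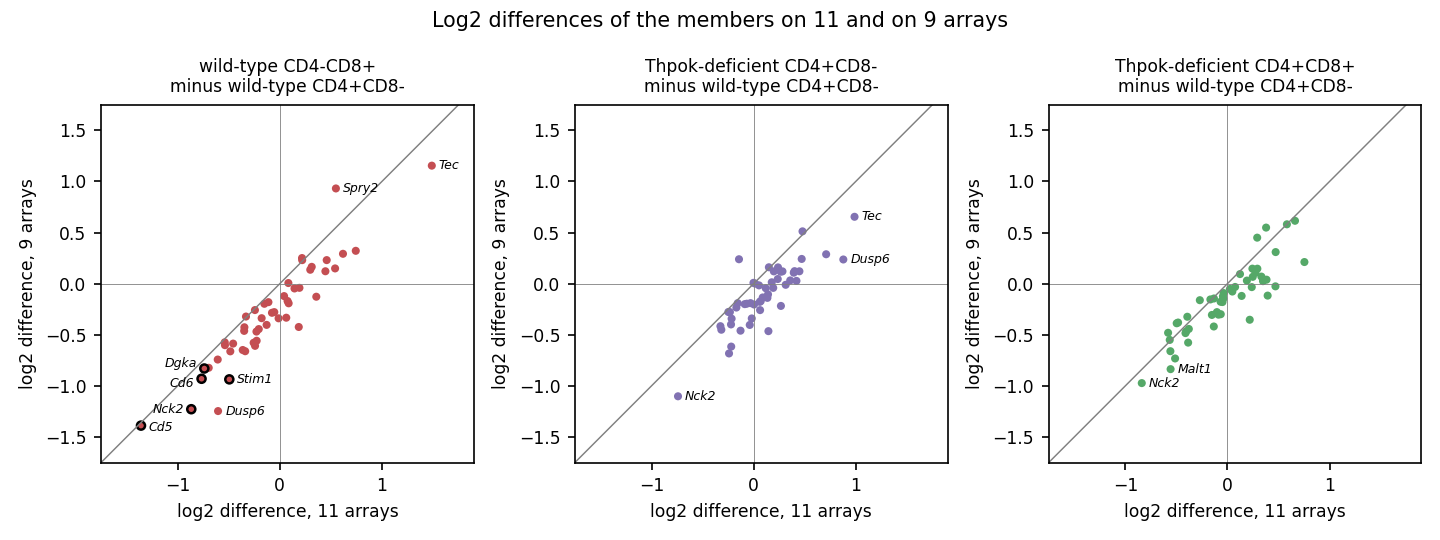
Log2 differences from wild-type CD4 cells on all 11 arrays (horizontal axis) and on 9 arrays (vertical axis), 1 point per member and 1 panel per group, with a line where both are equal. Black edges mark the 5 members called on the 9 arrays, all in CD8 cells, where 38 of the 50 points lie below 0 on the vertical axis.

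Other genes of these routes, 95 named and 74 measured, gave 1 call. Tespa1, which assists calcium signalling after receptor engagement in thymocytes, fell in CD8 cells. It read 4.51 and 4.57 in CD8 cells, 5.69, 5.51 and 5.55 in Thpok-deficient CD4+CD8- cells, 5.05, 5.38 and 5.38 in double-positive cells, and 5.74, 5.68 and 6.15 in wild-type CD4 cells. CD8 arrays lay below all others, and the level was 2.50-fold lower than in wild-type CD4 cells (log2 difference -1.32 ± 0.21 (SE), limma adjusted p = 0.0208). The call was lost without either CD8 array, without Thpok-deficient CD4+CD8- replicate 2 or replicate 3, and with the arrays of the groups compared alone. The differences of Thpok-deficient CD4+CD8- and double-positive cells were -0.27 and -0.59 (adjusted p = 0.557 and 0.267).

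The median difference over the 74 genes was 0.02 in CD8, 0.11 in Thpok-deficient CD4+CD8- and -0.07 in double-positive cells, and -0.18, -0.050 and -0.12 on the 9 arrays. At an unadjusted p under 0.05 in limma, 0 were higher and 9 lower in CD8 cells (against 7.76% and 3.72% of all probe sets), 1 higher and 1 lower in Thpok-deficient CD4+CD8- cells (against 7.39% and 3%), and 1 higher and 8 lower in double-positive cells (against 5.36% and 3.98%). Vav3, an exchange factor of the Vav family, read 6.00 and 6.32 in CD8 cells, 7.50, 6.84 and 6.90 in Thpok-deficient CD4+CD8- cells, 6.82, 6.48 and 6.07 in double-positive cells, and 7.30, 7.64 and 6.82 in wild-type CD4 cells. Its CD8 arrays lay below those of wild-type CD4 cells, by -1.09 (adjusted p = 0.173). Ikbkb, the kinase that releases NF-kappaB from its inhibitors, read 8.55 and 8.03 in CD8 cells, 8.28, 8.35 and 8.42 in Thpok-deficient CD4+CD8- cells, 8.57, 8.06 and 7.55 in double-positive cells, and 9.26, 9.17 and 8.59 in wild-type CD4 cells. All 3 groups were below wild-type CD4 cells in every array, by -0.72, -0.66 and -0.95 (adjusted p = 0.410, 0.443 and 0.232). Pik3ip1, an inhibitor of PI3 kinase, read 8.88 and 8.10 in CD8 cells, 8.26, 8.17 and 9.29 in Thpok-deficient CD4+CD8- cells, 9.16, 7.87 and 7.55 in double-positive cells, and 9.62, 9.20 and 8.97 in wild-type CD4 cells. The CD8 arrays lay below those of wild-type CD4 cells (-0.78), and both Thpok-deficient groups overlapped them (-0.70 and -1.07, adjusted p = 0.557 and 0.432).

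Nfkbia, an inhibitor of NF-kappaB, read 9.93 and 8.22 in CD8 cells, 9.74, 9.73 and 10.25 in Thpok-deficient CD4+CD8- cells, 11.14, 9.80 and 9.20 in double-positive cells, and 10.91, 10.05 and 9.43 in wild-type CD4 cells. All groups overlapped, and the CD8 difference was -1.05 (adjusted p = 0.592). Nfkbib, a related inhibitor, read 8.15 and 9.64 in CD8 cells, 8.79, 8.94 and 8.63 in Thpok-deficient CD4+CD8- cells, 8.73, 9.19 and 9.94 in double-positive cells, and 8.41, 8.69 and 7.81 in wild-type CD4 cells. Its double-positive arrays lay above those of wild-type CD4 cells, by 0.98 (adjusted p = 0.435). Ubash3b, a phosphatase related to Ubash3a, read 7.59 and 8.46 in CD8 cells, 8.63, 7.88 and 8.27 in Thpok-deficient CD4+CD8- cells, 8.36, 8.03 and 7.86 in double-positive cells, and 7.76, 7.96 and 6.97 in wild-type CD4 cells. Its groups overlapped, and the difference of Thpok-deficient CD4+CD8- cells was 0.70 (adjusted p = 0.481).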

How the data were processed

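Labelled RNA of 11 sorted T cell samples was measured on Affymetrix arrays (Mouse Exon 1.0 ST per the series design, while the labels' protocols name a 3' IVT kit). The authors deposited log2 values, made with Partek and RMA against mm9 per the submitters' processing notes, which give no versions. RMA includes quantile normalization, yet the spread of the deposited log2 values differed between arrays and was left as it was. The members were matched through the platform annotation, where 14970 probe sets carried 1 symbol, 1019 several and 684 none. No probe set was filtered out. A limma 3.58.1 model (R 4.3.3) with a term for each group used all 11 arrays and 16673 probe sets (7 residual and 3.80 prior degrees of freedom). It gave 6 comparisons and a moderated F test, two-sided, with Benjamini-Hochberg adjustment over all probe sets and a threshold of 0.05. Intervals are 95% and moderated. The code was tested on simulated data.

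The members, role groups, other pathway genes, marker lists, tests and alternatives were chosen with earlier results of these data known. Values in every array are given for members called in a comparison or the F test, for the 4 members with the largest absolute difference from wild-type CD4 cells in each comparison, for the called and the 3 most different genes of the other pathway list, and for Cd3e, Cd247, Zap70, Lat, Cd28 and Icos. The replicate numbers are not said to mark a shared preparation. After removing group means, all 3 same-number pairs of Thpok-deficient double-positive and wild-type CD4 arrays correlated above 0.1 across genes (0.43 to 0.72). Each double-positive array correlated best with the wild-type CD4 array of its own number. Wild-type CD4 replicate 2, however, correlated more with double-positive replicate 1 (0.52) than with replicate 2 (0.43). Whether the numbers mark shared preparations was not settled. Both arrays numbered 3 there have a narrow range. No other pair of groups had all its same-number pairs above 0.1. A block on the number left the comparison of double-positive with wild-type CD4 cells at 0 called members, while all probe sets called rose from 0.204% to 0.516%. For Thpok-deficient CD4+CD8- against wild-type CD4 cells the block also gave 0 called members, while all probe sets called rose from 0.084% to 1.58%. Alternatives covered normalization, a filter on dim probe sets, the block, array weights, the 2 narrow arrays, the groups fitted and each array left out. For arrays, their number limits the precision.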

Additional observations from a re-analysis of the deposited data

How the results depend on the processing

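The Cd5 call in CD8 against wild-type CD4 cells rests on 2 CD8 arrays, and its limma adjusted p ran from 0.00110 (array weights) to 0.348 (only the arrays of the groups compared). Counts of called members and pathway genes stayed within 1.5 times under the filter on dim probe sets and, apart from the F test, under median centring and the replicate block, which changed no other call (1 member in CD8 cells). Under the filter the 1 pathway call was Sh2b3 in place of Tespa1, whose mean is under 6. In CD8 against wild-type CD4 cells, called members numbered 4 under further quantile normalization, 6 with array weights, 5 on 9 arrays, 5 on 9 arrays with quantile normalization (an alternative chosen after seeing the data), 0 in the fit of the groups compared alone, and 0 to 1 with each array left out. Pathway calls there were 2, 5, 3, 3, 0 and 0 to 1 in the same order of settings. All probe sets were called at 1.44%, 2.61%, 1.61%, 1.86% and 0.054% under the first 5 of these, against 0.534%. Thpok-deficient CD4+CD8- cells had 9 called members and 6 pathway genes with array weights and 1 member (Stim1) on 9 arrays with quantile normalization (0.174% of all probe sets). Double-positive cells had 1 (Dgka) under quantile normalization (0.876% of all probe sets), 10 members and 13 pathway genes with array weights, and 1 (Stim1) on 9 arrays with quantile normalization (0.18%). Array weights called 1 member between Thpok-deficient CD4+CD8- and CD8 cells (0.024% of all probe sets). They called 12.5% and 11.9% of all probe sets in the Thpok-deficient groups against wild-type CD4 cells. limma's default weight estimate did not converge, so gene-by-gene estimates were used, with weights from 0.0853 to 4.27. The F test called 2 members under quantile normalization, 0 with median centring, 0 with the replicate block and 9 with array weights. It called 2 on 9 arrays with quantile normalization and 0 to 1 with each array left out. The share of all probe sets called by the F test was taken in the main fit alone (0.246%), so these counts lack a background. Other counts of called members and pathway genes stayed at 0 when arrays were left out in turn. Quantile normalization moved the median of all probe sets to -0.03 in CD8 and -0.03 in Thpok-deficient CD4+CD8- cells, against -0.14 and -0.15 as deposited.

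Some differences changed sign. In CD8 cells, quantile normalization gave Cd3e -0.0848, Zap70 -0.13 and Icos -0.069, median centring gave Cd247 0.054, array weights gave Lat -0.053 and Icos -0.099, 9 arrays gave Zap70 -0.17, Lat -0.047 and Icos -0.19, and 9 arrays with quantile normalization gave Zap70 -0.16 and Icos -0.19. In Thpok-deficient CD4+CD8- cells, quantile normalization gave Cd3e -0.11, Cd247 -0.17, Zap70 -0.092 and Cd28 -0.16, array weights gave Dusp6 -0.20, Cd247 -0.22 and Cd28 -0.11, 9 arrays gave Cd247 -0.13, Zap70 -0.10 and Cd28 -0.18, and 9 arrays with quantile normalization gave Cd247 -0.18, Zap70 -0.12 and Cd28 -0.24. In double-positive cells, quantile normalization gave Cd3e -0.022, array weights gave Dusp6 -0.43, Cd247 -0.16 and Lat -0.022, 9 arrays gave Zap70 -0.034, and 9 arrays with quantile normalization gave Zap70 -0.013. With each array left out, the CD8 differences ran from -0.28 to 0.12 for Cd247, -0.30 to 0.46 for Zap70, -0.047 to 0.25 for Lat, -0.44 to 0.0065 for Cd28 and -0.19 to 0.32 for Icos. In Thpok-deficient CD4+CD8- cells they ran from -0.13 to 0.26 for Cd247, -0.10 to 0.38 for Zap70 and -0.18 to 0.22 for Cd28, and in double-positive cells from -0.0075 to 0.48 for Zap70 and -0.34 to 0.056 for Cd28. The cause of these changes was not tested.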
